A study of Mus musculus with 6 samples.

Results

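The Bcl2 family decides at the mitochondrial outer membrane whether a cell starts apoptosis, and the transcripts of 10 of its members were followed here in mouse fetal liver progenitors that received a short hairpin RNA (shRNA) against Samd14. The members were named by role: the effectors Bak1 and Bax, the survival members Bcl2, Bcl2l1 and Mcl1, and the BH3-only members Bcl2l11, Bbc3, Pmaip1, Bid and Bad. All 10 were found by symbol among the 24376 gene IDs of the tables, and all 10 had enough counts to be tested. Both groups held cells from C57BL/6 embryos at E14.5, enriched for progenitors, infected with retrovirus right after isolation and cultured for 3 days. The shSamd14 group (3 libraries) carried an shRNA against Samd14 and the control group (3 libraries) a control shRNA, whose target is not given in the sources used here. For each library 200000 cells without CD71 and Ter119, surface proteins of maturing red cells, were taken for polyadenylated RNA sequencing. Effects of the lower Samd14 level and effects of the hairpin on other transcripts cannot be told apart in this design. Whether libraries of 1 group stem from separate embryos or cultures is not labelled, and the p-values then measure only the spread between libraries, which may be technical.

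Effectors such as Bak1 and Bax form pores in the outer membrane, through which cytochrome c escapes to start caspase activation. Survival members hold the effectors in check, and BH3-only members, which are induced or activated by stress, bind survival members and in part the effectors themselves. In red cell precursors, signalling through the erythropoietin receptor is known to raise Bcl2l1, which encodes Bcl-xL, and Mcl1 is known to be needed by blood stem and progenitor cells.

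What the family shares is the BH3 motif, the short helix through which its members bind each other. The stretch of coding sequence for its core is shown for 9 members to let a reader compare them; Pmaip1 is named only. A search of each member's longest annotated protein-coding transcript (GENCODE M21, build GRCm38) for a leucine, any 3 residues, then glycine, alanine or serine followed by aspartate gave exactly 1 match in each of the 9. Each line gives the 18 coding bases of the match, 5′ to 3′ on the transcript, and capitals mark the codons of the leucine and of the closing residue pair.
Bak1: CTTgctctcatcGGAGAT
Bax: CTCcggcgaattGGAGAT
Bcl2: CTCcgccgggctGGGGAT
Bcl2l1: CTGagagaggcaGGCGAT
Mcl1: CTGcggcgcgtgGGCGAC
Bcl2l11: CTGcggcggatcGGAGAC
Bbc3: CTGcggcggatgGCGGAC
Bid: CTCgcccaaataGGCGAT
Bad: CTCcgaaggatgAGCGAT

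Of the 9 runs, 7 held a glycine codon before the aspartate codon, Bbc3 held an alanine codon there and Bad a serine codon. Only 4 of the 18 bases were identical in all 9: the opening CT of the leucine codon and the opening GA of the aspartate codon. Of these, all but the C were fixed by the search for leucine and aspartate itself. The most alike of the 36 pairs were Bcl2l11 and Bbc3, with 15 identical bases, while Bak1 shared 11 with Bax, 12 with Bid and 7 with Bcl2l1. All of these runs lie in coding exons. They are at chr17:27022540-27022557 (minus strand) for Bak1, chr7:45466006-45466023 (minus) for Bax, chr1:106712584-106712601 (minus) for Bcl2, chr2:152829706-152829723 (minus) for Bcl2l1 and chr3:95659436-95659453 (plus) for Mcl1. For the BH3-only genes they are at chr2:128147150-128147167 (plus) for Bcl2l11, chr7:16313773-16313790 (plus) for Bbc3, chr6:120897298-120897315 (minus) for Bid and chr19:6950792-6950809 (plus) for Bad.

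The libraries were deep enough for each member: the shSamd14 libraries held 23862151 to 26462797 estimated counts and the control libraries 20584169 to 24069711. The hairpin's target checked the labels: Samd14 had 41.9, 38.8 and 39.4 counts per 1000000 (CPM) in the shSamd14 libraries and 82.0, 82.1 and 83.8 CPM in the control libraries, a log2 fold change of -1.05. Over all genes, 327 of 12670 tested passed the threshold, a Benjamini-Hochberg adjusted p of 0.05 by edgeR's quasi-likelihood test, and 167 of them were higher in shSamd14. Of progenitor markers, all 8 were tested and none passed, and their sum was 1191 to 1215 CPM in shSamd14 and 1185 to 1376 CPM in control libraries. This sum joins moves in both directions. Kit and Flt3 were lower in CPM in every shSamd14 library (log2 fold changes -0.33 and -0.28, edgeR adjusted p 0.0943 and 0.129). Gata2 and Lmo2 were higher in every one (0.25 and 0.24, edgeR adjusted p 0.106 and 0.0653). Groups without overlap in CPM were seen for 20.7% of all tested genes. Tfrc, which encodes CD71, still had 824 ± 48.0 CPM in shSamd14 and 934 ± 57.2 CPM in control libraries (SD, n = 3 each), although the cells had been taken as CD71-negative. Markers of B and T lymphocytes summed to at most 0.628 CPM in any library.

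Bak1, which encodes an effector that sits in the outer mitochondrial membrane of healthy cells, was the single member that passed the test. It had 69.4, 62.4 and 68.5 transcripts per 1000000 (TPM) in the shSamd14 libraries, against 45.1, 47.4 and 46.9 TPM in the control libraries. The lowest shSamd14 library lay well above the highest control library, so that the groups did not overlap. In CPM, the depth-scaled counts used for the test, Bak1 averaged 94.4 ± 6.45 in shSamd14 and 65.9 ± 3.77 in control libraries (SD, n = 3 each). The fold change was 1.43, with a 95% interval of 1.29 to 1.59, which is 0.52 on the log2 scale (SE 0.07). Its adjusted p was 0.00104 by the edgeR test. By p-value Bak1 stood at place 30 among all tested genes and at place 23 among those that rose. Bak1 (ENSMUSG00000057789) lies on the minus strand of chromosome 17, from 27019810 to 27029009.

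The share of the members that rose, 1 of 10, is to be read against 1.32% of all tested genes that were called higher in shSamd14 and 2.58% called in either direction. With 10 members and a single call, nothing can be said of the family as a group. Of the log2 fold changes, 5 were positive and 5 negative, with a median of 0.01, and the median over all tested genes was 0.006.

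**Figure D1:**
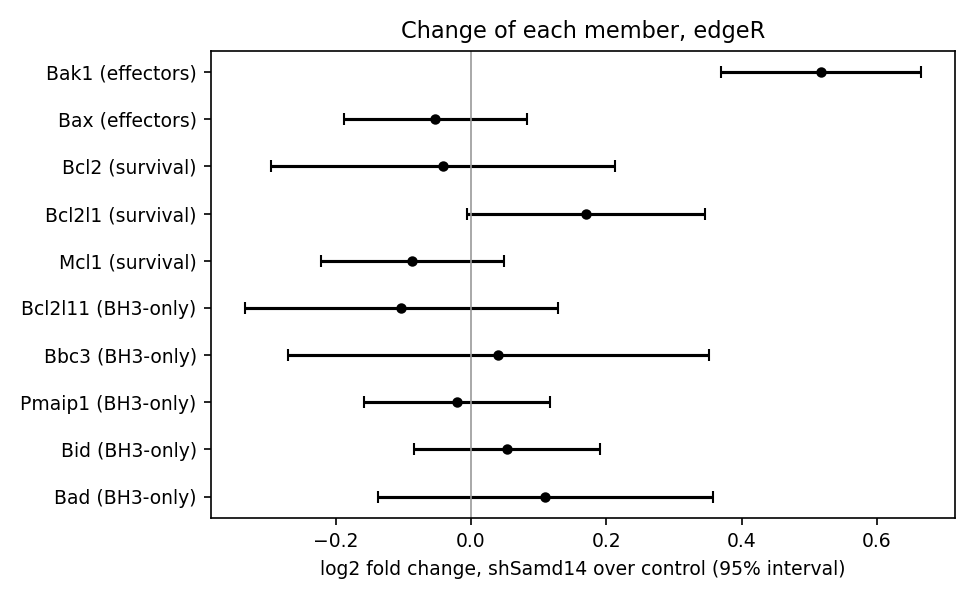
Log2 fold change of each of the 10 members (points, shSamd14 over control) with its 95% interval (bars) from edgeR's quasi-likelihood fit on 3 libraries a group. Bak1, at 0.52, is the member whose interval lies wholly away from 0; those of the other 9 include 0.

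Bax, the second effector, which shuttles between the cytosol and mitochondria, did not follow Bak1. It had 326, 297 and 325 TPM in the shSamd14 libraries and 323, 321 and 331 TPM in the control libraries, with overlapping groups and the lowest value in shSamd14 replicate 2. Its log2 fold change was -0.05 (SE 0.06, 95% interval -0.19 to 0.08, edgeR adjusted p 0.754). The ratio of Bak1 to Bax TPM within a library was 0.213, 0.210 and 0.211 in shSamd14 and 0.140, 0.148 and 0.142 in control libraries. This ratio varied little within each group and did not overlap between them. Bak1 made up 17.4 ± 0.105% of the summed effector TPM in shSamd14 and 12.5 ± 0.314% in control libraries (SD, n = 3 each). Bax was the more abundant effector in every library, and the effector sum came to 383 ± 20.2 TPM in shSamd14 and 372 ± 5.41 TPM in control libraries, and it overlapped between groups. In CPM the log2 difference of the effector sums was 0.136, against 0.042 in TPM. CPM are not corrected for length, so Bak1, at 2364 to 2387 bases against 869 bases for Bax, weighs more in the CPM sum than in the TPM sum. Bax still had the higher mean in CPM, at 155 in shSamd14 and 161 in control libraries.

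**Figure D2:**
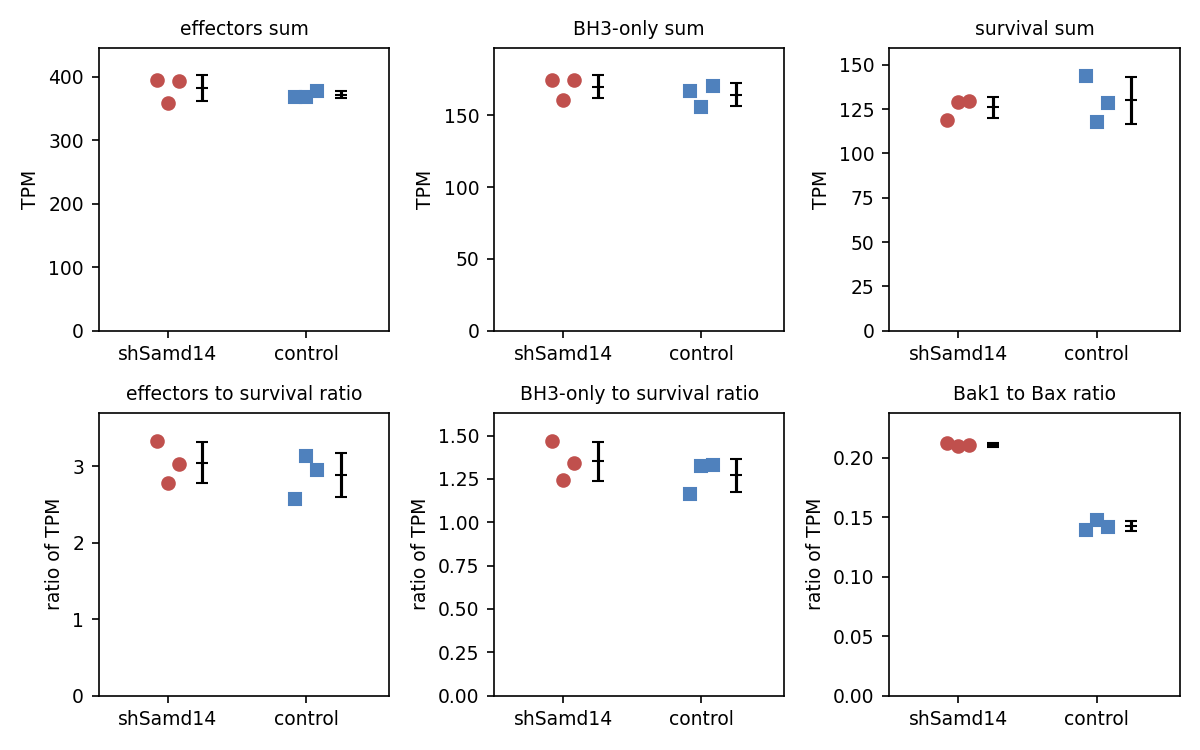
TPM sums of effectors, BH3-only and survival members and ratios of TPM, one panel each, with shSamd14 (circles) left of control (squares), 3 libraries each, and mean ± SD beside the points. The Bak1 to Bax ratio separates the groups (0.210 to 0.213 in shSamd14, 0.140 to 0.148 in control); the other 5 panels overlap.

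The survival members gave no call. Mcl1, a short-lived protein that restrains Bak1 and Bax and the most abundant survival transcript here, had 99.5, 108 and 107 TPM in shSamd14 and 122, 101 and 109 TPM in control libraries. The control libraries spread more widely than the shSamd14 libraries and enclosed 2 of their 3 values. Its log2 fold change was -0.09 (SE 0.06, edgeR adjusted p 0.575). Bcl2l1 had 17.1, 18.7 and 19.9 TPM in shSamd14 and 18.9, 14.4 and 16.5 TPM in control libraries. These values overlapped in TPM, whereas in CPM the 3 shSamd14 libraries (23.5, 23.6 and 25.3) lay just above the 3 control libraries (19.99 to 22.9). The log2 fold change of Bcl2l1 was 0.17 (SE 0.08, 95% interval -0.006 to 0.35), and its edgeR p was 0.0574 before and 0.353 after adjustment. With Bak1 it made 2 of the 10 members whose groups did not overlap in CPM, which 20.7% of all tested genes also showed. Bcl2, the founding member, had 2.35, 2.86 and 2.46 TPM in shSamd14 and 3.04, 2.51 and 2.29 TPM in control libraries, the lowest level of the 10. Its log2 fold change was -0.04 (SE 0.12, edgeR adjusted p 0.907), and its sign turned without control replicate 1 or shSamd14 replicate 3. Summed over the 3 genes, survival transcripts came to 126 ± 6.08 TPM in shSamd14 and 130 ± 13.1 TPM in control libraries, with overlapping groups. Mcl1 made up 83.3 ± 0.44% of the sum in shSamd14 and 85.2 ± 0.462% in control libraries (SD, n = 3 each). This share did not overlap between groups (82.78 to 83.65% in shSamd14, 84.73 to 85.63% in control libraries), and it got no test.

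The 5 BH3-only members gave no call either, and the most abundant of them was Bid, which links death receptors to mitochondria once caspase 8 has cut it. Bid had 67.3, 63.3 and 64.7 TPM in shSamd14 and 62.7, 58.9 and 63.9 TPM in control libraries, with a log2 fold change of 0.05 (SE 0.06, edgeR adjusted p 0.76). The groups overlapped, and control replicate 2 was the lowest library. Pmaip1, which encodes Noxa, a p53-induced binder of Mcl1, had 45.2, 48.3 and 49.0 TPM in shSamd14 and 52.1, 43.6 and 47.9 TPM in control libraries, with a log2 fold change of -0.02 (SE 0.06, edgeR adjusted p 0.917). Bad, which is held inactive by phosphorylation and 14-3-3 proteins while growth factors signal, had 43.6, 33.5 and 42.7 TPM in shSamd14 and 34.5, 37.7 and 39.3 TPM in control libraries. Its shSamd14 libraries enclosed the control values on both sides, with shSamd14 replicate 2 the lowest of all 6 libraries, and the log2 fold change was 0.11 (SE 0.12, edgeR adjusted p 0.712). That value was 0.006 without shSamd14 replicate 1, 0.014 without control replicate 1, 0.175 without control replicate 3 and 0.213 without shSamd14 replicate 2.

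Bbc3, which encodes Puma, a p53-induced activator of apoptosis, had 13.4, 9.82 and 11.1 TPM in shSamd14 and 11.0, 9.97 and 13.4 TPM in control libraries. A high library stood in each group (shSamd14 replicate 1 and control replicate 3), and the log2 fold change was 0.04 (SE 0.14, edgeR adjusted p 0.93). Bcl2l11, which encodes Bim, a binder of all survival members that is induced on cytokine withdrawal, had 5.31, 5.54 and 6.95 TPM in shSamd14 and 6.73, 5.45 and 5.99 TPM in control libraries. The groups overlapped over nearly their whole range, and the log2 fold change was -0.10 (SE 0.11, edgeR adjusted p 0.712). It ranged from -0.207 without shSamd14 replicate 3 to -0.044 without control replicate 1 when single libraries were left out. BH3-only transcripts summed to 170 ± 8.16 TPM in shSamd14 and 164 ± 7.82 TPM in control libraries, and their ratio to the survival sum was 1.35 ± 0.114 in shSamd14 and 1.27 ± 0.0949 in control libraries (SD, n = 3 each), with overlapping groups. The ratio of Bcl2l1 to Bcl2l11 TPM was 3.22, 3.37 and 2.86 in shSamd14 and 2.81, 2.64 and 2.75 in control libraries. The groups did not overlap, with a narrow gap between shSamd14 replicate 3 and control replicate 1. Each gene alone overlapped between groups in TPM, and neither passed the test. How many other pairs of members separate in this way was not counted, and 20.7% of single tested genes did not overlap in CPM. The TPM of Bcl2l11 also rests on a length that differed between groups, as given below.

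A p above the threshold does not show that these 9 members were equal between groups, and their 95% intervals state what the libraries allow. Together they ran from 0.793-fold at the lower bound of Bcl2l11 to 1.28-fold at the upper bound of Bad. The interval of Bak1, from 1.29-fold, began above the upper bound of each of the other 9. Whether Bak1 differed from another member in its response was not tested.

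**Figure D3:**
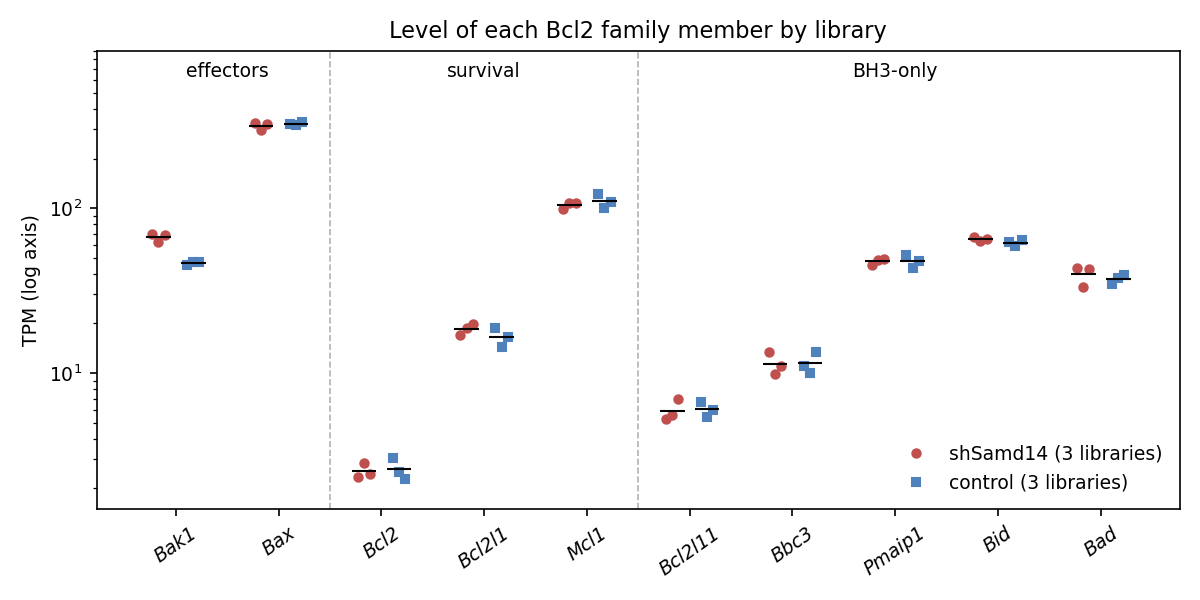
Level of each member in TPM (log axis) in the 3 shSamd14 (red circles, left) and 3 control libraries (blue squares, right), grouped by role; black lines are group means. Bak1 is the one gene whose groups separate, and levels range from 2.56 TPM for Bcl2 to 316 TPM for Bax as shSamd14 means.

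In TPM, which corrects for transcript length, the members kept nearly the same order in both groups. In shSamd14 libraries Bax (316 ± 16.4 TPM) came first, then Mcl1 (105 ± 4.64 TPM), Bak1 (66.8 ± 3.83 TPM), Bid (65.1 ± 2.0 TPM), Pmaip1 (47.5 ± 2.02 TPM), Bad (39.9 ± 5.62 TPM), Bcl2l1 (18.5 ± 1.39 TPM), Bbc3 (11.4 ± 1.79 TPM), Bcl2l11 (5.93 ± 0.888 TPM) and Bcl2 (2.56 ± 0.268 TPM; SD, n = 3 throughout). In control libraries the order was the same except for Bak1, which at 46.5 ± 1.2 TPM followed Pmaip1 (47.9 ± 4.23 TPM) and Bid (61.8 ± 2.63 TPM). Neighbours in the order had overlapping ranges only for Bak1 and Bid in shSamd14 and for Pmaip1 and Bak1 in control libraries. Bak1 therefore stood level with Bid in shSamd14 libraries and level with Pmaip1 in control libraries. Bulk values of this kind cannot tell fewer cells that carry a transcript from less of it per cell.

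The deposited tables also give each gene a length averaged over its transcripts by their estimated share, which enters TPM but not the counts that were tested. It varied between libraries for 6 of the 10 members; the other 4 had a fixed length. Of these 6, 2 did not overlap between groups, where 11.4% of tested genes with a varying length did not. For Bcl2l11 the length was 4266, 4246 and 4207 bases in shSamd14 and 4485, 4319 and 4466 bases in control libraries, all shorter in shSamd14. With these lengths taken into account the log2 fold change of Bcl2l11 was -0.04 as an offset in edgeR and -0.03 in limma on log2(TPM + 1), against -0.10 in the counts. For Bbc3 it was 1753, 1792 and 1778 bases in shSamd14 and 1675, 1722 and 1717 bases in control libraries, all longer in shSamd14, and with the offset its log2 fold change was -0.015, against 0.04 in the counts. These lengths rest on an estimated division of reads among 5 listed transcripts of Bcl2l11 and 2 of Bbc3, and no test was made of them. For Bak1, with 2 listed transcripts, the length stayed between 2364 and 2387 bases in all 6 libraries.

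Reads of overlapping genes on opposite strands can be confused where the use of strand is not given. Bak1 overlaps Ggnbp1, which had 4.82 CPM in shSamd14 and 4.04 CPM in control libraries on average (log2 fold change 0.26, edgeR adjusted p 0.567); the Bak1 means were 94.4 CPM in shSamd14 and 65.9 CPM in control libraries. Zbtb9, the other listed gene within 20000 bases of Bak1, had a log2 fold change of -0.14 (edgeR adjusted p 0.563). Bid overlaps Bcl2l13, and Bad overlaps Gpr137, each on the opposite strand, so their levels are less certain.

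Some 7-base words in 3′ untranslated regions (UTRs) had been tied to the genes that moved in an earlier search of these same data: CTGATTA and TGATTAA to genes that rose, CAAGTGT and AAGTGTA to genes that fell. Since that search included the members, the words are given as description. Bak1 was the single member whose longest annotated 3′ UTR held a word of the first pair, which 14.4% of the 11836 tested genes with a UTR did. Bcl2 and Bcl2l11 held words of the second pair, as did 21.7% of those genes, and the remaining 7 members held none. The sites are printed to show where the words stand in the 3 members that hold them and in Samd14, on the strand of the transcript. Capitals mark the word, and in Bcl2l11 the overlapping words CAAGTGT and AAGTGTA, which start at bases 812 and 813 of its UTR.
Bak1: tgagaagtttTGATTAAgccaaatgta
Bcl2: agaaatatatAAGTGTAtttggcatac
Bcl2l11: agggtatcttCAAGTGTAttgtgtcag
Samd14: cgtgaagagcCAAGTGTgcccacctgc

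The Bak1 site lies at chr17:27019875-27019901, near the end of the UTR, where the word starts at base 1040 of 1121. The Bcl2 site lies at chr1:106538311-106538337, the Bcl2l11 site at chr2:128159131-128159157 and the Samd14 site at chr11:95026005-95026031. Of the tested pathway genes below, 11 held a word of the first pair and none of the second, and none of the 11 passed. Their log2 fold changes ran from -0.24 for Eda2r to 0.28 for Bcl2l15, with 7 positive and 4 negative. A word match is no evidence of binding, and the part of these words in the Bak1 result was not tested.

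The genes around the family were followed in 9 lists of 102 genes in all, chosen with earlier results of these data known. Of these, 92 were tested and none passed the threshold of the edgeR test, where 2.58% of all tested genes did. An unadjusted p under 0.05 was reached by 13 (14.1%), as by 15% of all tested genes, and the smallest adjusted p was 0.108. List medians of the log2 fold change ran from -0.10 to 0.05, against 0.006 over all tested genes.

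Among 13 further relatives in the tables, 8 were tested and none passed. Bcl2l2, which encodes the survival protein Bcl-w, had the smallest p: it had 21.6, 22.9 and 26.1 CPM in shSamd14 and 27.7, 26.9 and 27.8 CPM in control libraries, with a log2 fold change of -0.22 (SE 0.09, edgeR adjusted p 0.215). All 3 shSamd14 values lay below the control values. Bnip3, a mitophagy receptor induced by hypoxia, had 128, 125 and 82.1 CPM in shSamd14 and 166, 133 and 150 CPM in control libraries, with a log2 fold change of -0.42 (SE 0.20, edgeR adjusted p 0.422); shSamd14 replicate 3 was the lowest. Its relative Bnip3l, which clears mitochondria from maturing red cells, had a log2 fold change of 0.04 (SE 0.07). Bik had the highest log2 fold change of the 8, at 0.72 (SE 0.41, edgeR adjusted p 0.45). Its level was low, at 0.516 CPM in shSamd14 and 0.317 CPM in control libraries on average, and the groups overlapped. The relatives Bok, Hrk and Bcl2l10 had at most 0.15 TPM in any library.

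Downstream of the pore, none of the 14 caspase and mitochondrial release genes passed. Apaf1, the scaffold of the apoptosome, had a log2 fold change of 0.006, and Cycs, which encodes cytochrome c, had -0.08. Htra2, a mitochondrial protease, had the smallest p of this list, with 119, 107 and 110 CPM in shSamd14 and 98.4, 105 and 99.9 CPM in control libraries (log2 fold change 0.15, SE 0.06, edgeR adjusted p 0.267). Of the 5 inhibitors of apoptosis, 4 had a negative log2 fold change, none of them past the threshold, and Birc3, a ubiquitin ligase of this group, had the smallest p (-0.15, SE 0.07, edgeR adjusted p 0.29). None of the 8 outer membrane partners passed: Fis1, a fission protein, had the smallest p (-0.13, edgeR adjusted p 0.504), and Vdac2, a porin known to bind Bak1, had a log2 fold change of -0.06. Of the 6 tested genes of Mcl1 turnover, Fbxw7, a ubiquitin ligase subunit, came nearest (-0.14, edgeR adjusted p 0.592).

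Upstream, 15 transcriptional regulators were tested and none passed. Trp53, which encodes p53, a known inducer of Bax, Bbc3 and Pmaip1, had a log2 fold change of 0.02 (SE 0.06). Its inhibitor Mdm2 had 176, 187 and 197 CPM in shSamd14 and 243, 202 and 212 CPM in control libraries, all lower in shSamd14, with a log2 fold change of -0.23 (SE 0.07, edgeR adjusted p 0.132). Of 13 p53 targets outside the family, 4 had a positive and 9 a negative log2 fold change. The cell cycle inhibitor gene Cdkn1a had one of -0.007, and the receptor gene Eda2r, with the smallest p, one of -0.24 (SE 0.09, edgeR adjusted p 0.198). Stat5a, Stat5b and Gata1, factors known to act on Bcl2l1 in red cell precursors, had log2 fold changes of -0.02, -0.01 and 0.08.

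Among 8 tested death receptor genes, Tnfsf10, which encodes the ligand TRAIL, had the smallest p of all 9 lists. It had 2.68, 2.64 and 2.22 CPM in shSamd14 and 3.72, 3.53 and 3.79 CPM in control libraries, with every shSamd14 library lower. The log2 fold change was -0.55 (SE 0.17) and did not pass (edgeR adjusted p 0.108). Of the 15 kinase and 14-3-3 genes that act on Bad, none passed, and Ywhaz, a 14-3-3 protein gene, had the smallest p (-0.17, SE 0.06, edgeR adjusted p 0.208).

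**Figure D4:**
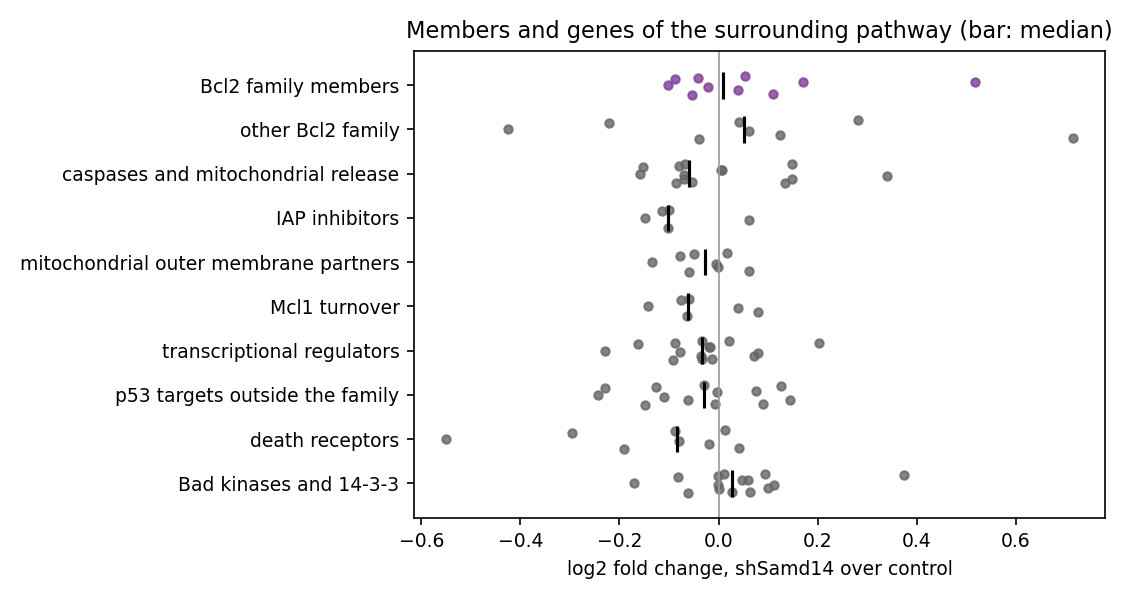
Log2 fold change (shSamd14 over control) of the 10 members (top row, purple) and of the tested genes of 9 pathway lists (grey); black bars are list medians. Bak1, at 0.52, is the rightmost member, and no grey point passed the threshold.

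Markers of other cell types were summed beside the Bak1 result. Of 14 megakaryocyte and platelet markers 6 rose and none fell, and they summed to 789 to 840 CPM in shSamd14 and 644 to 754 CPM in control libraries. Of 15 erythroid markers 3 rose and none fell, and they summed to 6000 to 6730 CPM in shSamd14 and 4472 to 5766 CPM in control libraries. Over all tested genes, 1.32% were called higher in shSamd14. Both sums were higher in every shSamd14 library, and no marker of these lists was at 0. The sums of neutrophil, macrophage, mast cell, liver and vessel markers overlapped between groups, and none of their tested genes passed. The part of these cell types in the Bak1 result was not tested.

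The Bak1 result did not hinge on a setting. Under 16 alternatives its log2 fold change stayed between 0.46 and 0.56 and it passed in each, with the adjusted p highest, at 0.0349, in limma on log2(TPM + 1) with no filter on low values. With each library left out in turn, the edgeR adjusted p of Bak1 stayed between 0.00232 and 0.00847. None of the other 9 members passed under any of the same alternatives, where their adjusted p stayed at 0.303 or above.

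**Figure D5:**
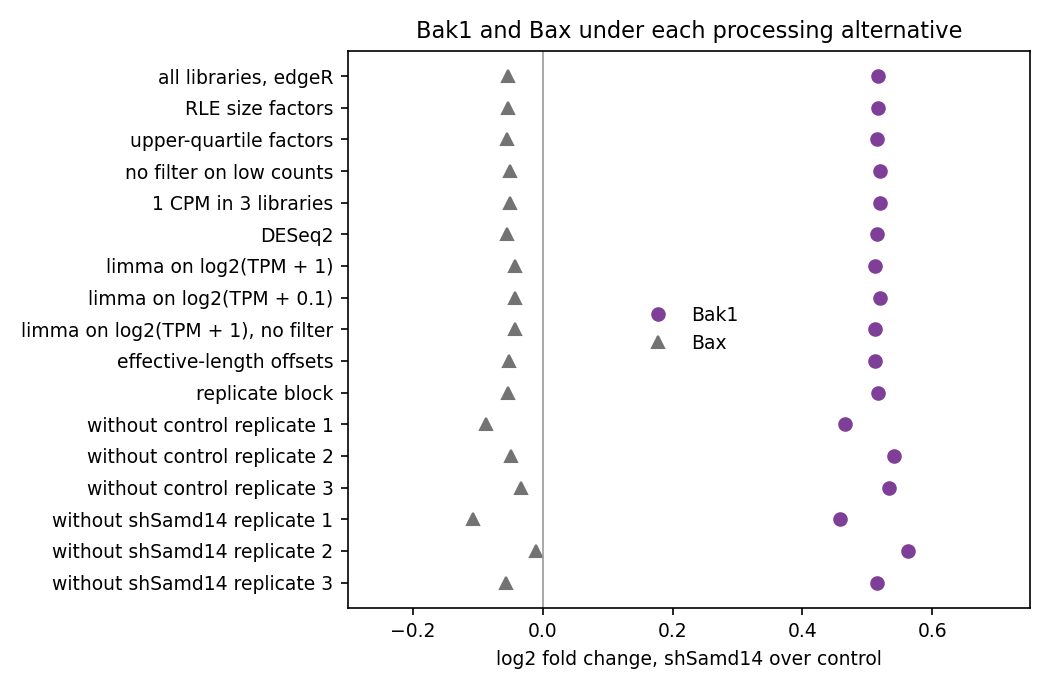
Log2 fold change (shSamd14 over control) of Bak1 (circles) and Bax (triangles) with all libraries and under each of 16 alternatives (rows). Bak1 stays between 0.46 and 0.56 and Bax below 0.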

How the data were processed

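Expected counts (estimated counts), TPM, FPKM and gene lengths came from RSEM tables deposited by the authors, 1 for each library, per the file headers; in expected counts RSEM divides a read with several possible origins among them. Software named in the submitters' processing notes, with no roles, is RSEM 1.2.15, Bowtie 1.0.1 and CASAVA 1.8.2, and the build is mm10. Annotation release, trimming and strand setting: not given in the sources used here. FPKM values deposited by the authors were not used.

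GENCODE M21 (GRCm38, the assembly of mm10) gave symbols for 23580 of 24376 IDs. After rounding, expected counts entered edgeR 4.0.16 (R 4.3.3): 12670 genes passed filterByExpr (minimum count 10, minimum total 15), TMM factors were 0.986 to 1.021, and shSamd14 was set against control by a two-sided robust quasi-likelihood test, adjusted by Benjamini-Hochberg over the tested genes. The SE is the size of the log2 fold change over the square root of F, and 95% intervals use the degrees of freedom of the fit. CPM are TMM-scaled. TPM, as deposited by the authors, served for levels between genes, sums and ratios, which got no test.

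All members, Samd14, and in each list the genes that passed or, failing that, the one of smallest p are named; further relatives may be named too, and pathway genes named beside these were chosen after their values were seen. Members and lists were chosen with earlier results of these data known. Same-numbered libraries were checked for pairing: their deviations from group means correlated at -0.0723, 0.153 and 0.272 for numbers 1, 2 and 3, so the numbers were not taken as pairs. No libraries were duplicates (chi-square per gene 5.48 or more). The scripts were tested on simulated data. A withheld item is not reported by name here. Alternatives were RLE or upper-quartile factors, no filter or 1 CPM in 3 libraries, effective-length offsets, a replicate block, DESeq2 1.42.0, limma 3.58.1 on log2(TPM + 1) or log2(TPM + 0.1), and each library left out.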

Additional observations from a re-analysis of the deposited data

How the results depend on the processing

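The count of 327 genes past the threshold was 420 in DESeq2. In limma it was 168 on log2(TPM + 1), 170 on log2(TPM + 0.1) and 21 on log2(TPM + 1) with no filter on low values. In edgeR the count was 488 with no filter on low counts, 682 with the replicate block and 540 at an adjusted p under 0.1. With 1 library left out it lay between 128 (without shSamd14 replicate 2) and 283, and it was 153 without control replicate 1. The replicate numbers were not shown to pair all libraries, since shSamd14 replicate 1 correlated best with control replicate 2 (0.177). The shSamd14 replicates 2 and 3 correlated best with the same-numbered control (0.153 and 0.272). Whether same-numbered libraries share a batch was not tested. With the block Bak1 stayed the only member past the threshold. The log2 difference of the effector sums was 0.136 in CPM, which are not corrected for length. Signs turned for members with values near 0: Bbc3 had -0.007 in each of the 3 limma fits and -0.015 with effective-length offsets, and between -0.111 and 0.186 with 1 library left out; Bcl2 lay between -0.128 and 0.045, Pmaip1 between -0.071 and 0.012 and Bid between -0.002 and 0.084. Of the members whose sign held, Bad lay between 0.006 and 0.213, Bcl2l11 between -0.207 and -0.044 (-0.04 with effective-length offsets, -0.029 in limma on log2(TPM + 1)), Bax between -0.107 and -0.01, Mcl1 between -0.138 and -0.045 and Bcl2l1 between 0.12 and 0.211. With 1 library left out, list medians lay between -0.072 and -0.03 for caspases and release genes, -0.147 and -0.037 for inhibitors of apoptosis, -0.065 and -0.007 for transcriptional regulators, -0.148 and -0.066 for death receptors, -0.12 and 0.007 for Mcl1 turnover, -0.085 and -0.009 for p53 targets, -0.056 and -0.003 for outer membrane partners, 0.011 and 0.088 for other relatives, and 0.01 and 0.048 for Bad kinases and 14-3-3 genes. The causes of the other shifts were not tested. Genes near 1 CPM rest on few reads.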
